A study of Homo sapiens with 4 samples.

Results

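The ATP-binding cassette (ABC) genes of 4 prostate cancer cell lines were taken as the rows of a gene count table whose symbol has the form ABC, a subfamily letter from A to G, and a number, with ABCA1, ABCG1 and ABCC4 left out. This gave 30 genes of the 22637 rows in the table. The lines were LNCaP, a cell line from a lymph node metastasis of prostatic adenocarcinoma, LN-OlapR, which was derived from LNCaP and is resistant to the PARP inhibitor olaparib, C4-2B, a castration-resistant descendant of LNCaP, and 2B-OlapR, the olaparib-resistant derivative of C4-2B. Each resistant line was obtained by long-term culture in rising amounts of olaparib and is kept in the drug, but all 4 libraries are labelled untreated, and the RNA was taken from cells plated without the selection agent. Each line gave 1 library, so no difference between lines has a replicate check, and the effect of resistance cannot be told apart from any other difference between single cultures.

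ABC proteins bind and hydrolyze ATP on a conserved cassette, and most use that energy to move a substrate across a membrane. The best known in cancer are the efflux pumps P-glycoprotein, encoded by ABCB1, and the breast cancer resistance protein, encoded by ABCG2, which lower the amount of a drug inside a cell. Olaparib and several other PARP inhibitors are substrates of P-glycoprotein, and some are also carried by ABCG2. Other members of the family export lipids, conjugated metabolites or heme precursors, sit in the inner membrane of mitochondria or in peroxisomes, or, in the case of ABCE1 and the ABCF genes, have no membrane domain and act on ribosomes.

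The library totals were 26394267 counts for LNCaP against 24278062 for LN-OlapR and 19950537 for C4-2B against 20796946 for 2B-OlapR. Levels are given as normalized CPM, the count as a share of the library total after scaling with a TMM factor that corrects for library composition, and ranges in brackets are 95% intervals of counting error only. A gene with no count in a library could still be present at up to 0.112 to 0.147 normalized CPM, the level of 3 counts. All 9 prostate luminal markers, KLK2 among them, were above 1 normalized CPM in every library. KLK3, which encodes prostate-specific antigen, stood at 53.1 normalized CPM in the LNCaP library against 1870 to 2685 in the other 3, and KLK3 is an androgen-regulated gene. The part of that difference in the ABC results was not tested. Of the basal, stromal, leukocyte and endothelial markers, levels were obtained only for KRT14, COL1A1, PDGFRB, CD68 and VWF. Their summed levels lay at 0.112 to 0.557, 8.78 to 18.8, 0.409 to 5.14 and 2.61 to 12.2 normalized CPM (COL1A1 and PDGFRB summed as stromal markers). Their part in the results was likewise not tested.

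ABCB1 is not analysed here, and neither are 12 other annotated ABC genes, among them ABCC3, ABCB5, ABCG5 and ABCG8. Genes were compared between lines where their mean over the pair reached 1 normalized CPM. Of the 30 members, 22 reached it in both pairs of parental and resistant line, ABCC8 only in the LN pair (LN-OlapR against LNCaP) and ABCC11 only in the 2B pair (2B-OlapR against C4-2B). The other 6 (ABCA4, ABCB4, ABCC2, ABCC12, ABCG2 and ABCG4) stayed under it in both, and 5 of these had no more than 12 counts in any library. The 30 genes together took 0.121% of the LNCaP counts, 0.161% of LN-OlapR, 0.155% of C4-2B and 0.163% of 2B-OlapR.

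ABCG2 was among the members that stayed under that minimum. It gave 3 counts in LNCaP against 4 in LN-OlapR and 21 in C4-2B against 19 in 2B-OlapR, which are 0.112, 0.171, 1.03 and 0.917 normalized CPM. The C4-2B and 2B-OlapR libraries were thus above the LNCaP and LN-OlapR libraries, while each resistant line lay close to its own parental line. The log2 ratio of resistant to parental line was 0.57 (−1.94 to 3.39) in the LN pair and −0.16 (−1.14 to 0.80) in the 2B pair, so neither pair held a detectable difference at this depth, and the interval of the LN pair allows changes of several-fold. In bulk RNA, fewer cells with a transcript and less of it per cell cannot be told apart. Between the parental lines the log2 ratio of C4-2B to LNCaP was 3.01 (1.46 to 5.59), on 21 against 3 counts.

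The ABCG2 gene spans chr4:88090264-88231322 on the minus strand of GRCh38. The aryl hydrocarbon receptor (AHR), a sensor of aromatic compounds, is known to induce ABCG2 and binds DNA at a core of the letters GCGTG. The 250 bases before one of the RefSeq starts of ABCG2 (GRCh38.p14, chr4:88158640-88158889, minus strand) are shown because AHR differed between the lines, as described further on. Capitals mark GCGTG, or CACGC where it lies on the other strand, at 127 and 49 bases before the start. Not every RefSeq start of ABCG2 has a match. None was found for the starts that follow chr4:88159291-88159540 and chr4:88231627-88231876 on the minus strand.
ABCG2: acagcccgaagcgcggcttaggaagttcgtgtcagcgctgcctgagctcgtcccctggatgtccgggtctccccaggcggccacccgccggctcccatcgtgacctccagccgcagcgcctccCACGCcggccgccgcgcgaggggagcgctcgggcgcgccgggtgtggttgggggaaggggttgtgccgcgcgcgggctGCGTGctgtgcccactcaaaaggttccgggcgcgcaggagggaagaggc
Of 35116 promoter windows of 300 bases in RefSeq (250 bases before and 50 after a start), 36.5% held the core on either strand. It was found in 21 of 39 windows of the members (53.8%), and a match of these letters is a description, not a site. Of the 24 members with a window, 16 held it in at least 1 window. That count is per gene, and some genes have several windows, so it cannot be set against the share of windows. The share per gene over all genes was not computed.

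Levels of the 30 genes were compared with each other per kilobase of transcript. The highest on average was ABCC1, which encodes the multidrug resistance-associated protein that exports glutathione conjugates and drugs, with 30.8 normalized CPM per kilobase in LNCaP against 58.0 in LN-OlapR and 36.7 in C4-2B against 30.5 in 2B-OlapR. It was followed by ABCF2 (25.3, 33.9, 48.0 and 45.6 in the same order), ABCF3 (29.03, 36.8, 35.1 and 41.8), ABCA2 (21.0, 32.9, 27.4 and 47.2) and ABCB6 (23.2, 25.2, 36.8 and 41.4). ABCF2 and ABCF3 are ATPases of the translation machinery, ABCA2 is a lipid transporter of lysosomes, and ABCB6 is a porphyrin transporter. These 5 genes changed order among themselves from library to library, and in 2B-OlapR ABCC1 lay below the other 4. At the lower end, ABCA4, ABCC2 and ABCC12 averaged 0.018, 0.019 and 0.023 normalized CPM per kilobase. ABCG2 ranked 25 of the 30 with 0.124.

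Among the pumps of drugs and conjugates, ABCC1 was the one with the most counts and differed in opposite directions in the pairs. It gave 5463 counts in LNCaP against 8917 in LN-OlapR and 4952 in C4-2B against 4167 in 2B-OlapR, or 203, 382, 242 and 201 normalized CPM. LN-OlapR was thus the highest library, 1.88-fold (1.82 to 1.95) above LNCaP, just under the 2-fold difference used below as a call, while 2B-OlapR was 1.20-fold below C4-2B (log2 ratio −0.27, −0.33 to −0.21). ABCC5, an exporter of cyclic nucleotides and nucleotide analogs, gave 928 counts in LNCaP against 1620 in LN-OlapR and 819 in C4-2B against 1115 in 2B-OlapR. Both resistant lines were above their parental lines, LN-OlapR by 2.01-fold (1.86 to 2.18) and 2B-OlapR by 1.34-fold (1.23 to 1.47). With total-count scaling the LN value lay under 2-fold, at a log2 ratio of 0.92.

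The remaining conjugate pumps were less abundant. ABCC10, whose protein confers resistance to taxanes, gave 336, 273, 398 and 310 counts over the libraries in the order LNCaP, LN-OlapR, C4-2B, 2B-OlapR, with log2 ratios of −0.09 (−0.33 to 0.14) in the LN pair and −0.38 (−0.60 to −0.16) in the 2B pair. ABCC6, the transporter whose loss causes pseudoxanthoma elasticum, gave 105, 49, 137 and 87 counts in the same order. Each resistant line was lower than its parental line, by a log2 ratio of −0.89 (−1.42 to −0.39) in the LN pair and −0.67 (−1.08 to −0.28) in the 2B pair, and reads of its near-identical pseudogenes could be divided among them. ABCC11, an exporter of lipophilic anions, gave 18 counts in LNCaP and 20 in LN-OlapR, at a log2 ratio of 0.35 (−0.64 to 1.36). Its mean in the LN pair was under 1 normalized CPM. The 2B pair held 23 counts for C4-2B and 70 for 2B-OlapR, a 2.96-fold difference (1.85 to 5.05). ABCC2, which exports conjugates into bile, had 1 to 5 counts per library, and ABCC12 had 0, 0, 2 and 8.

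**Figure D1:**
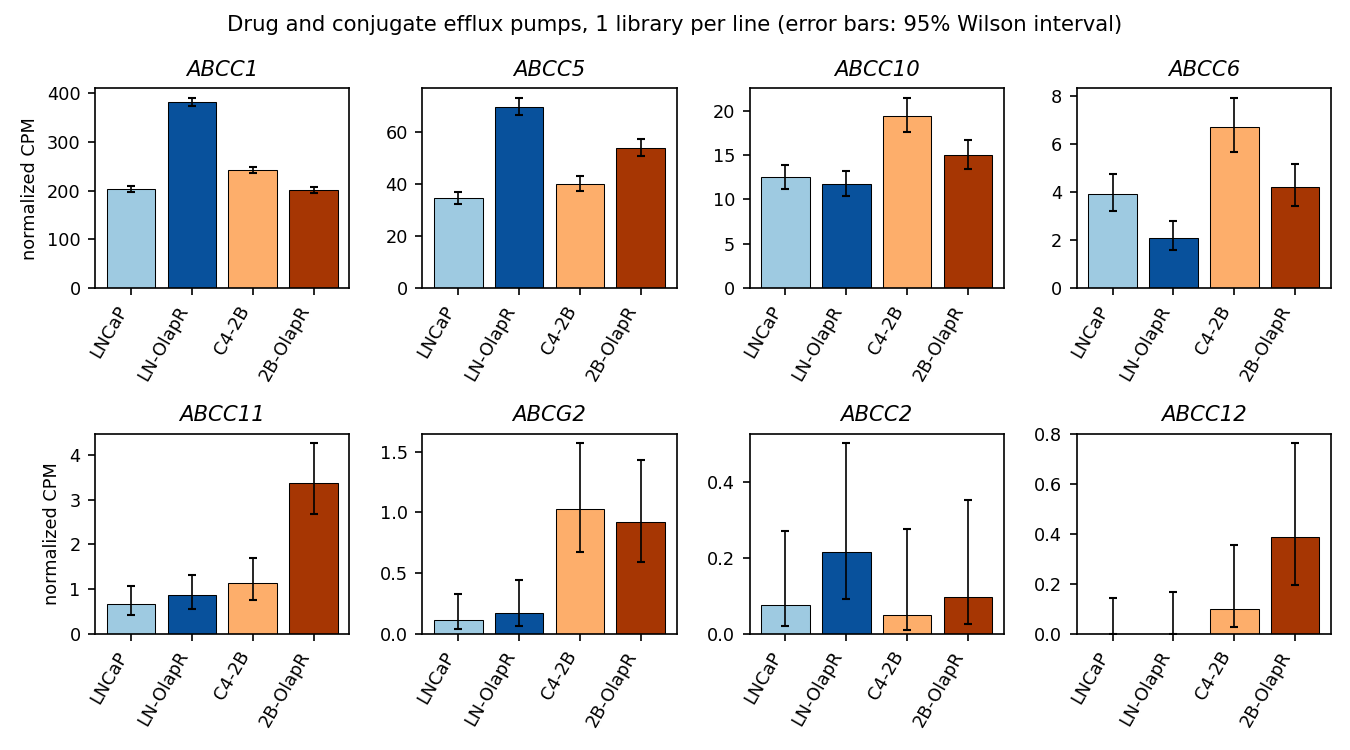
Levels in normalized CPM of 8 pumps of drugs and conjugates in the 4 libraries, as bars with 95% Wilson intervals of the count. ABCC1 stands highest in LN-OlapR at 382 normalized CPM, and ABCG2 stands at 0.112 and 0.171 in LNCaP and LN-OlapR against 1.03 and 0.917 in C4-2B and 2B-OlapR.

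Summed over the 8 pumps for which levels were obtained, the level was 255 normalized CPM in LNCaP against 467 in LN-OlapR and 310.5 in C4-2B against 279 in 2B-OlapR. ABCC1 made up most of each sum. In the LN pair 4 of these genes passed the minimum level. Of these, 2 were above 0, against 49.6% of all genes analysed, and 1 was 2-fold higher, against 4.64%, with a median log2 ratio of 0.41. In the 2B pair 5 passed, of which 2 were above 0, against 49.98% of all genes, and 1 was 2-fold higher, against 4.42%, with a median of −0.27. Counts this small do not set the pumps apart from other genes.

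The LN pair was examined next over all members, to ask which ABC genes differed between LN-OlapR and LNCaP. Of 23 members analysed, 3 were at least 2-fold higher in LN-OlapR, against a background of 4.64% of the 15373 genes analysed, and 1 was at least 2-fold lower, against 4.83%. Among those higher were ABCC8 and ABCC5, and the lower one was ABCB11. The counts are small and were not tested against the background. The median log2 ratio of the 23 was 0.20, against −0.00 over all genes. A difference of less than 1.5-fold was found in 15 of the 23, against 12084 of the 15373 genes analysed. Nearest to the 2-fold limit, ABCC5 lay just inside at 1.01 on the log2 scale, and ABCB8 (0.95) and ABCC1 (0.91) just outside.

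ABCB11, the bile salt export pump of hepatocytes, had 53 counts in LNCaP against 5 in LN-OlapR and 16 in C4-2B against 37 in 2B-OlapR. LNCaP was the highest library and LN-OlapR the lowest, with a level 8.44-fold lower than in LNCaP (log2 ratio −3.08, −4.88 to −1.89). The 2B pair went the other way, with 2B-OlapR 2.24-fold above C4-2B (1.24 to 4.397). ABCB4, the phosphatidylcholine flippase that works beside it in the liver, had only 1, 7, 12 and 5 counts, and ABCG4, a sterol transporter of brain, had 3, 7, 4 and 0.

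ABCC8, the sulfonylurea receptor that forms ATP-sensitive potassium channels, had 38 counts in LNCaP and 85 in LN-OlapR, a 2.56-fold difference (1.74 to 3.89). The 2B pair held 5 counts for C4-2B and 34 for 2B-OlapR, with a log2 ratio of 2.63 (1.39 to 4.46), but its mean there was under 1 normalized CPM. The resistant line was thus the higher library in each pair, and C4-2B was the lowest of the 4. KCNJ11, the pore subunit with which ABCC8 assembles and its neighbor on chromosome 11, gave 208 and 178 counts in LNCaP and LN-OlapR, with a log2 ratio of −0.02 (−0.32 to 0.28).

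ABCD3, which imports branched-chain fatty acids and bile acid precursors into peroxisomes, gave 855 counts in LNCaP against 666 in LN-OlapR and 691 in C4-2B against 862 in 2B-OlapR. The resistant line was the lower library in the LN pair, at a log2 ratio of −0.16 (−0.30 to −0.01), and the higher one in the 2B pair, at 0.30 (0.15 to 0.45). ABCD4, which takes part in the release of cobalamin from lysosomes, gave 559 counts in LNCaP against 415 in LN-OlapR and 430 in C4-2B against 278 in 2B-OlapR. It was lower in both resistant lines, at −0.22 (−0.41 to −0.04) and −0.65 (−0.87 to −0.43).

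In the 2B pair, 4 of 23 members were at least 2-fold above C4-2B in 2B-OlapR, against 4.42% of the 15527 genes analysed, and 1 was at least 2-fold lower, against 5.65%. The higher genes were ABCC11, ABCB11, ABCA12 and ABCA5, all among the less abundant members, and the lower was ABCF1. The median log2 ratio of the members was 0.17, against −0.00 over all genes. A difference of less than 1.5-fold was found in 14 of 23, against 11774 of the 15527 genes analysed. With a minimum level of 10 normalized CPM none of the 4 higher genes was left and the median was −0.04. ABCA5 lay just inside the 2-fold limit at 1.02 and just outside it, at 0.98, with total-count scaling, and ABCA2 (0.79) and ABCB10 (−0.79) were nearest to it from outside.

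ABCF1 encodes an ATPase that associates with ribosomes and promotes initiation of translation, and it gave 2456 counts in LNCaP against 2577 in LN-OlapR and 2732 in C4-2B against 1199 in 2B-OlapR. Its levels were 91.4, 110.5, 133.5 and 57.9 normalized CPM in the same order, so C4-2B was the highest library and 2B-OlapR the lowest. C4-2B was already above LNCaP, at a log2 ratio of 0.55 (0.47 to 0.63). Its level in 2B-OlapR was 2.31-fold below that of C4-2B (log2 ratio −1.21, −1.31 to −1.11), while in LN-OlapR it was 1.21-fold higher than in LNCaP (1.14 to 1.28).

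The 3 other ATPases of the translation machinery differed less than ABCF1 in the 2B pair. ABCE1, which splits ribosomes after termination, had log2 ratios of −0.13 (−0.22 to −0.04) in the LN pair and −0.12 (−0.23 to −0.01) in the 2B pair, and ABCF3 had 0.34 (0.26 to 0.43) and 0.25 (0.17 to 0.34). ABCF2 had 0.42 (0.35 to 0.50) and −0.07 (−0.14 to −0.01), and its values are uncertain because its annotation overlaps a readthrough gene. The promoter of ABCF1 is shown because ABCF1 was the abundant member with the lower value in 2B-OlapR (RefSeq, GRCh38.p14, chr6:30571192-30571441, plus strand, the 250 bases before the start). Capitals mark the AHR core on the other strand, at 129 and 107 bases before the start.
ABCF1: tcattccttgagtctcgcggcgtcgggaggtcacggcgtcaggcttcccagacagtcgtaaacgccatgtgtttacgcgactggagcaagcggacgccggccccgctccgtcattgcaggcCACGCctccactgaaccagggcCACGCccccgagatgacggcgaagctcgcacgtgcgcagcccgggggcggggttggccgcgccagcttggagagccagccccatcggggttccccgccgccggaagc

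Among the ABCA lipid transporters, ABCA2 gave 4602 counts in LNCaP against 6265 in LN-OlapR and 4570 in C4-2B against 7979 in 2B-OlapR. Both resistant libraries were above both parental ones, by 1.57-fold (1.51 to 1.63) and 1.72-fold (1.66 to 1.79). ABCA2 is shown with the 250 bases before a RefSeq start because it was the abundant lipid transporter that was higher in both pairs. The stretch is chr9:137028923-137029172 (GRCh38.p14, minus strand), with capitals as above at 59 bases before the start. Another RefSeq start of ABCA2, which follows chr9:137028238-137028487 on the minus strand, has a match at 235 bases before it.
ABCA2: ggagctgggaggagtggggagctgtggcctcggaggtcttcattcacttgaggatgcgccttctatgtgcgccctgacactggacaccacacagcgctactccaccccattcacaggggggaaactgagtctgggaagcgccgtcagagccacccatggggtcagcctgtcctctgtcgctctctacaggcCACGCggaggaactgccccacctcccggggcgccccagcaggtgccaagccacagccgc
ABCA7, a relative linked to phagocytosis and to Alzheimer disease, was also higher in both, with 1047, 1172, 936 and 1325 counts and log2 ratios of 0.37 (0.25 to 0.49) and 0.48 (0.36 to 0.61). ABCA3, the surfactant lipid transporter of lung, gave 2081, 1767, 1060 and 983 counts and differed little within pairs, at −0.03 (−0.12 to 0.06) and −0.13 (−0.25 to −0.00), with both C4-2B lines under both LNCaP lines. ABCA12, which carries ceramides in skin, had 73, 47, 28 and 62 counts, and ABCA5 had 102, 102, 25 and 52. In both of these the parental C4-2B line was the lowest library, and 2B-OlapR was 2.17-fold (1.38 to 3.55) and 2.03-fold (1.25 to 3.46) above it. The 5 ABCA genes analysed had a median log2 ratio of 0.20 in the LN pair, with 3 above 0, against 49.6% of all genes. In the 2B pair the median was 0.79, the value of ABCA2, with 4 above 0, against 49.98% of all genes. The median over all genes was −0.00 in each pair. Counts this small do not set the ABCA genes apart from other genes.

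The 4 mitochondrial and heme or iron-sulfur transporters had no 2-fold difference in either pair. Over all genes, 4.64% were 2-fold higher and 4.83% lower in the LN pair, and 4.42% and 5.65% in the 2B pair. With shares this low, the lack of a call among 4 genes does not set them apart from other genes. ABCB8, a mitochondrial inner membrane protein of iron homeostasis, gave 915 counts in LNCaP against 1531 in LN-OlapR and 1486 in C4-2B against 1489 in 2B-OlapR, so the LNCaP library stood alone as the lowest. LN-OlapR was 1.93-fold above LNCaP (1.78 to 2.09), and the log2 ratio in the 2B pair was −0.02 (−0.12 to 0.09). ABCB10, which supports heme synthesis, was lower in both resistant lines, with 592, 400, 472 and 276 counts and log2 ratios of −0.36 (−0.55 to −0.18) and −0.79 (−1.01 to −0.58), and it too has pseudogenes. ABCB6 had 0.12 (0.03 to 0.21) and 0.17 (0.09 to 0.25). ABCB9, a lysosomal peptide transporter, had 0.32 (0.13 to 0.52) and −0.48 (−0.68 to −0.29).

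**Figure D2:**
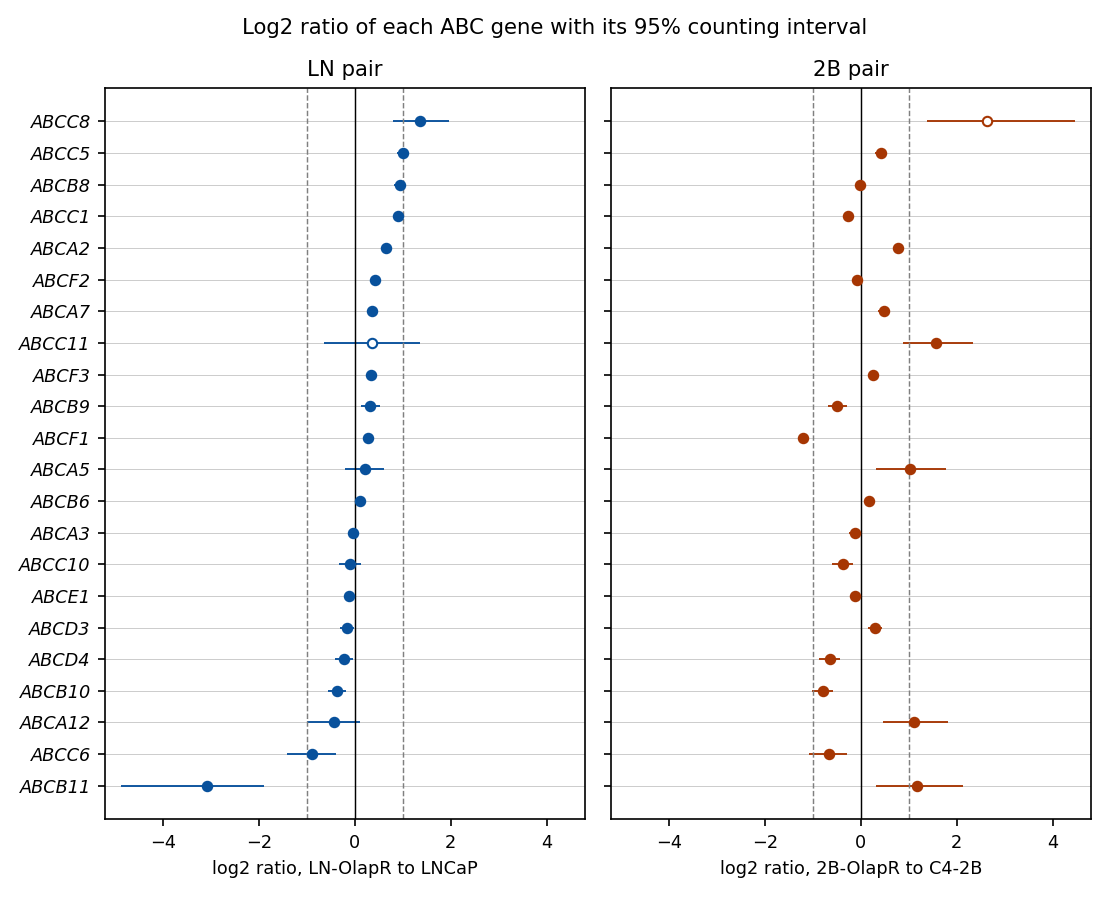
Log2 ratio of resistant to parental line for 22 ABC genes in the LN pair and the 2B pair, with 95% counting intervals, where hollow points are under the minimum level in that pair and dashed lines mark 2-fold. ABCB11 lies at −3.08 in the LN pair and 1.17 in the 2B pair, and ABCF1 at 0.27 and −1.21.

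The pairs share no library, so the direction of each member was set side by side for the 22 genes analysed in both. In 6 of them (ABCA2, ABCA7, ABCB6, ABCC5 and ABCF3 among them) the resistant line was higher in both pairs with counting intervals that excluded 0, which is 27.3% against 13.9% of the 14602 genes analysed in both. In 4 (ABCB10, ABCC6, ABCD4 and ABCE1) it was lower in both, 18.2% against 13.0%. In another 6 (ABCB9, ABCB11, ABCC1, ABCD3, ABCF1 and ABCF2) the pairs lay on opposite sides of 0, 27.3% against 16.0%. In the remaining 6 an interval included 0 in at least 1 pair. Counting intervals are narrow for abundant genes, and the shares describe these 4 libraries only.

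Between the parental lines, C4-2B was compared with LNCaP as a baseline. This comparison shares a library with each pair, and its values are only set beside theirs. Of 22 members analysed, 1 was at least 2-fold higher in C4-2B (8.00% of 15580 genes) and 2 were at least 2-fold lower (7.18%). ABCB8 was 2.13-fold higher, and ABCA5 and ABCB11 had log2 ratios of −1.61 (−2.33 to −0.99) and −1.30 (−2.24 to −0.51). ABCF2, whose gene lies on the same arm of chromosome 7 as ABCB8, was at 0.93 (0.85 to 1.001). The median was 0.24, against −0.02 over all genes.

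For called members, the 3 nearest analysed genes on each side were looked up in GENCODE 29 (GRCh38). ABCF1 lies in the major histocompatibility complex at chr6:30571376-30597179, and all 6 of its neighbors were lower in 2B-OlapR. Over all genes, 7766 of the 15527 analysed were below 0 and 5.65% were 2-fold lower. The log2 ratios of the neighbors, from −0.75 in PRR3 to −0.20 in MRPS18B, were all nearer 0 than that of ABCF1, and none was 2-fold. Within 1000 kb of ABCF1, 11 of 46 genes were above 0, against 45.4% over the chromosome. The median there was −0.25, against −0.05 over the chromosome. Within 1000 kb of ABCC5, on chromosome 3, 21 of 24 genes were above 0 in the LN pair, against 48.4% over the chromosome. The median there was 0.33, against −0.03 over the chromosome, and ABCF3 lies in the same stretch. For ABCC5, ABCC8 and ABCB11 in the LN pair and for ABCA5, ABCA12, ABCB11 and ABCC11 in the 2B pair, 0 of the 6 neighbors passed 2-fold in the member's direction. Over all genes, 4.64% were 2-fold higher and 4.83% lower in the LN pair, and 4.42% were higher in the 2B pair. With shares this low, 0 of 6 does not set a member apart from its region. The number of gene copies was not measured, and its part in these values was not tested.

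**Figure D3:**
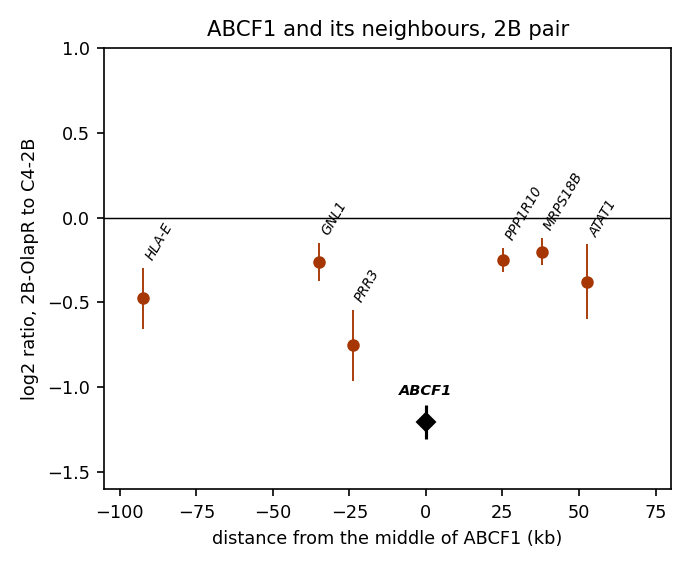
Log2 ratios with 95% counting intervals in the 2B pair of ABCF1 (black diamond) and of the 3 nearest analysed genes on each side (circles), against distance from the middle of ABCF1 in kb. All 6 neighbors lie below 0, from −0.75 to −0.20, and above ABCF1 at −1.21.

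The regions of the PARP inhibitor pumps were described in the same way. Levels were obtained for all 10 listed neighbors of ABCB1 on chromosome 7. In the LN pair 8 of 9 above the minimum level were higher in LN-OlapR, against 49.6% of all genes. Their median was 0.29, against −0.00 over all genes. TMEM243 (1.498, 1.17 to 1.84) and STEAP4 (2.55, 1.92 to 3.29) were 2-fold higher, against 4.64% of all genes. In the 2B pair 3 of 10 were above 0, against 49.98% of all genes, with a median of −0.18 against −0.00. RUNDC3B, which overlaps ABCB1 on the other strand, gave 5 counts in LNCaP against 35 in LN-OlapR and 9 in C4-2B against 42 in 2B-OlapR, with log2 ratios of 2.90 (1.65 to 4.72) in the LN pair, where its mean was under the minimum, and 2.14 (1.14 to 3.43) in the 2B pair. Of 7 neighbors of ABCG2, 6 were lower in LN-OlapR, against 7748 of the 15373 genes analysed. HERC6 was at −3.07 and PPM1K at −1.59, and HERC3 was higher at 1.37. In the 2B pair none of the 7 was 2-fold in either direction, against 4.42% higher and 5.65% lower of all genes. These counts are small and were not tested against the shares over all genes. PIGY and PYURF, which hold identical values, are both among the 7.

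Genes that work beside the ABC pumps were taken from lists of drug uptake, sensing and metabolism. AHR gave 7 counts in LNCaP against 61 in LN-OlapR and 21 in C4-2B against 175 in 2B-OlapR, with log2 ratios of 3.24 (2.20 to 4.70) and 3.01 (2.38 to 3.77), so each resistant line was well above its parent. CYP1A1, a cytochrome P450 that AHR induces, gave 5, 50, 62 and 132 counts, with log2 ratios of 3.40 (2.21 to 5.21) and 1.07 (0.63 to 1.53). CYP1A2, another AHR target, was near 0 in all libraries but 2B-OlapR, with 1, 0, 5 and 167 counts. CYP1B1 went the other way from CYP1A1 and CYP1A2 in the 2B pair, at −1.28 (−1.84 to −0.77). It gave 0, 1, 104 and 43 counts, so it was nearly absent from both lines of the LN pair. ABCG2, also a known AHR target, did not differ detectably in either pair, as given above. Of the 8 xenobiotic sensors and partners analysed in each pair, AHR was the 1 that was 2-fold higher in both. PPARG was 2-fold lower in the LN pair (−2.56) and higher in the 2B pair (1.20). Over all genes, 4.64% were 2-fold higher and 4.83% lower in the LN pair, and 4.42% were higher in the 2B pair. The share of all genes that were 2-fold higher in both pairs was not computed.

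MVP, the major vault protein, which is not an ABC protein but was named for drug resistance in lung, gave 42 counts in LNCaP against 165 in LN-OlapR and 62 in C4-2B against 455 in 2B-OlapR. Both resistant lines were above both parental lines, at log2 ratios of 2.17 (1.68 to 2.70) and 2.85 (2.47 to 3.26). Of 7 drug uptake carriers analysed in the LN pair, SLCO4A1 was 2-fold higher (1.07, with 0.89 in the 2B pair), against 4.64% of all genes. Of 8 in the 2B pair, SLCO3A1 was higher (0, 0, 52 and 248 counts over the 4 libraries). SLC22A3, the organic cation transporter 3, was lower in that pair (−3.69, −3.86 to −3.53), with 5, 2, 4227 and 331 counts in the same order. C4-2B was thus far above every other library for SLC22A3, and 2B-OlapR was still above LNCaP and LN-OlapR. Over all genes analysed in the 2B pair, 4.42% were 2-fold higher and 5.65% lower. Counts this small do not set the uptake carriers apart from other genes. Of the drug-metabolizing genes, GSTA1, a glutathione transferase whose products ABCC pumps export, gave 657, 203, 57 and 2 counts and was lower in both resistant lines, at −1.49 (−1.72 to −1.26) and −4.54 (−7.93 to −2.93). GSTK1 was 2-fold higher in the LN pair (1.22) and SULT2B1 in the 2B pair (1.54). The antigen peptide transporters TAP1 and TAP2, ABC proteins whose symbols lack the prefix, were within 1.5-fold in both pairs, at −0.03 and 0.30 in the LN pair and 0.41 and −0.41 in the 2B pair.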

How the data were processed

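RNA of 4 prostate cancer cell lines, 1 library each, was sequenced from stranded mRNA libraries. The authors deposited 1 table of estimated counts per gene, which are not normalized, and the submitters' processing notes name STAR, Partek and GRCh38 (hg38). The counting settings, the annotation and the use of strand are not given in the sources used here. The smallest sum of a row was 10, so genes with fewer counts were not analysed here. Of the members, 8 had a value more than 0.1 from a whole number, and all values were rounded. Such fractions can arise where reads are shared between genes.

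Counts were scaled with TMM factors (edgeR 4.0.16, R 4.3.3). Log2 ratios used a pseudocount of 0.5 counts, a minimum mean of 1 normalized CPM over the compared libraries and a 2-fold call. With 1 library per line no test was made. Intervals of ratios are 95% exact (Clopper-Pearson) binomial intervals, and those of levels are Wilson intervals. Both cover counting error only. Lengths and positions came from GENCODE 29 and promoter sequences from RefSeq (GRCh38.p14). The calculation was tested on simulated data. Scaling, pseudocount, rounding and the minimum level were varied.

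Members and gene lists were chosen with earlier results of these data known. Named genes are ABCG2, members past 2-fold in either pair or nearest to that limit, the 5 highest per kilobase, the extremes of each group and listed genes past 2-fold. Others were added for their group. Some members and listed genes that this rule names are not reported here.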

Additional observations from a re-analysis of the deposited data

Results flagged for a closer look

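For 6 members the resistant line was above its parent in 1 pair and below it in the other, with counting intervals that excluded 0 in both. The difference between the pairs was not tested, since each line has 1 library. ABCB11 had log2 ratios of −3.08 in the LN pair and 1.17 in the 2B pair, on no more than 53 counts in any library. ABCC1 had 0.91 and −0.27, and ABCF1 had 0.27 and −1.21. ABCB9 had 0.32 and −0.48, ABCD3 had −0.16 and 0.30, and ABCF2 had 0.42 and −0.07.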

How the results depend on the processing

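No paired analysis was possible because each line has 1 library, and no library could be left out. With a minimum mean of 0.1 normalized CPM, the LN pair had 6 members 2-fold higher, the 2B pair had 2 lower, and C4-2B against LNCaP had 3 higher. With a minimum of 10, 0 members were lower in the LN pair, 0 were higher in the 2B pair and 0 were lower in C4-2B than in LNCaP, and the median of the 2B pair was −0.044, since the less abundant genes are left out. No other count changed by more than 1.5-fold, and no other median changed sign, under the settings run. Over the scalings the median of the members was 0.121 to 0.214 in the LN pair and 0.129 to 0.197 in the 2B pair. ABCC5 in the LN pair was at 0.924 with total-count scaling, and ABCA5 in the 2B pair at 0.982 with that scaling and with a pseudocount of 2 counts. ABCB8 in the 2B pair, whose interval includes 0, changed sign with upper quartile factors. Alternatives for ABCB1 were not run, as it is not analysed here. Single libraries limit every comparison: the intervals hold no variation between cultures, and genes with few counts, ABCG2 among them, allow several-fold differences.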
